A study of Mus musculus with 2 samples.

Results

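Strong, narrow peaks of acetylated histone H4 at the ends of single genes were examined in R848-treated mouse macrophages. A peak of the wild-type list was taken where its −log10 q was at least 5, it was narrower than 1000 bp, and it touched the window of 1 kb on both sides of the ends of exactly 1 protein-coding gene. The rule took 1501 of 58229 wild-type peaks, lying at 1487 of 21887 protein-coding genes. Each was then looked up in the list of 55149 peaks from KAT8-deficient cells, where its partner was a peak sharing at least 1 bp, and of several the one sharing most bases. The rule used wild-type strength, width and position, so these 3 are described and not tested. The partner's strength and width, and the summits of both peaks, were not used by the rule.

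The cells were bone marrow-derived macrophages, primary cells grown from mouse marrow in M-CSF (20 ng/ml), and H4K16ac was mapped by CUT&Tag, in which an antibody brings a transposase to the modified histone. The groups were KAT8-cKO, read from its label as a conditional knockout of Kat8, and WT. Both were given R848 at 100 ng/ml for 2 h, and no untreated library was used here. Each genotype had 1 library and 1 peak list, so no difference between genotypes could be set against a spread between animals and no p-value was computed. The sources used here give no driver of the deletion, no age or sex of the mice and no number of animals, and how far Kat8 was deleted was not measured. Read totals are not among them either, so the depth of each library is unknown.

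KAT8, also called MOF, is the acetyltransferase that places most acetyl groups on lysine 16 of histone H4. It works in the MSL complex, which spreads the mark over gene bodies and is known from dosage compensation in flies, and in the NSL complex, which sits at the starts of housekeeping genes. Acetylation of this lysine weakens contacts between neighbouring nucleosomes. R848 activates the endosomal receptor TLR7, which signals through MyD88 to NF-κB and MAP kinases in macrophages.

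Sequences around 7 gene starts of members are given below. Ep400, Coa7 and Ankrd50 had the strongest wild-type peaks at a known start that had a KAT8-cKO partner of at least 5, apart from predicted genes and peaks over 30. Vapb, Marf1 and Phactr4 had the strongest at a known start with no partner, and Tab3 is the unpaired member of the TLR7 pathway. Each window is RefSeq sequence of GRCm38.p6, the assembly behind mm10, from 250 bases before to 50 after a start of the gene. It is written 5′ to 3′ along the gene, and the start is the listed one nearest the WT summit. The windows need not hold the whole peak. The WT summit lay outside them at Coa7 (159 bp from the start), Phactr4 (116 bp) and Tab3 (-263 bp). Capitals mark every match, on either strand, to the motifs searched: GGGCGG (GC box), CCAAT (NF-Y), CCGGAA (ETS), CGCATGC (NRF1), AANATGG (YY1), TATAAA (the box bound by TBP), TGANTCA (AP-1), GAGGAA (PU.1 core), TGACGTC (CRE core), CTCGCGA and GGGANTT (part of a κB site). Matches may overlap, and a palindromic stretch can be counted once on each strand.

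Ep400 (chr5:110770668-110770967, minus strand): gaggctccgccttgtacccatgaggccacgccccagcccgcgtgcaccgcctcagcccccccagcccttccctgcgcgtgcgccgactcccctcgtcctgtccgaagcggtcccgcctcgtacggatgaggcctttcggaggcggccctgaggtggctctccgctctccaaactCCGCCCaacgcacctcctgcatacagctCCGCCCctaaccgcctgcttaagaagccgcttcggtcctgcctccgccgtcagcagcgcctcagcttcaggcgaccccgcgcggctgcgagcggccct
Coa7 (chr4:108327902-108328201, plus strand): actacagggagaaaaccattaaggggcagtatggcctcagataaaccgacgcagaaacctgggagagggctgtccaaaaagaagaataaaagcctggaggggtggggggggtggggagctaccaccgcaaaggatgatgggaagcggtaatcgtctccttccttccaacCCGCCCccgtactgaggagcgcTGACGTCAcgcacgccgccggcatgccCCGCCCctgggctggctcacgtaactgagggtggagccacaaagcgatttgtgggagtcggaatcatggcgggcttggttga
Ankrd50 (chr3:38484801-38485100, minus strand): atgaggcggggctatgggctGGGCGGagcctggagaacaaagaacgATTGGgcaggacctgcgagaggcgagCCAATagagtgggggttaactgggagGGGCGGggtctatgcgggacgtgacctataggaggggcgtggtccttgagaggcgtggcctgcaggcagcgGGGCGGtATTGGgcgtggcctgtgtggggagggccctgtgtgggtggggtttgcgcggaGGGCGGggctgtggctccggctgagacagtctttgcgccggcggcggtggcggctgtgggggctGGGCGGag
Vapb (chr2:173737321-173737620, plus strand): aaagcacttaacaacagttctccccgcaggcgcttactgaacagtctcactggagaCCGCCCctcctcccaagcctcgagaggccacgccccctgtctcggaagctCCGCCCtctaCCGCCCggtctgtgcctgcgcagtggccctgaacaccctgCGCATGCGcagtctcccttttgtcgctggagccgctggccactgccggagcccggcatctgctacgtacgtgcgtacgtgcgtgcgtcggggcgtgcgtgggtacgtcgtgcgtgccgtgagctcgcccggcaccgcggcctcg
Marf1 (chr16:14159225-14159524, minus strand): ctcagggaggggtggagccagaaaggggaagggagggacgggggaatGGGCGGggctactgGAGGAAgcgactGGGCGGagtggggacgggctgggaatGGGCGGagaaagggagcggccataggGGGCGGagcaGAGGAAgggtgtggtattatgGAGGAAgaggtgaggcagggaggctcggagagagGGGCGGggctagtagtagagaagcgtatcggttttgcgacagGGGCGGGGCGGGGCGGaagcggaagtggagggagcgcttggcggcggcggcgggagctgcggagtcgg
Phactr4 (chr4:132422397-132422696, minus strand): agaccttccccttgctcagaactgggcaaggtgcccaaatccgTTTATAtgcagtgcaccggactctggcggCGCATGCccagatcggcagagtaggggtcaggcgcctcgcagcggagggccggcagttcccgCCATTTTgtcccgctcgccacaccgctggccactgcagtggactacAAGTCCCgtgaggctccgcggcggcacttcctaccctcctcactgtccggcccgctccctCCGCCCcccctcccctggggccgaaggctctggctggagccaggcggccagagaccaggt
Tab3 (chrX:85573772-85574071, plus strand): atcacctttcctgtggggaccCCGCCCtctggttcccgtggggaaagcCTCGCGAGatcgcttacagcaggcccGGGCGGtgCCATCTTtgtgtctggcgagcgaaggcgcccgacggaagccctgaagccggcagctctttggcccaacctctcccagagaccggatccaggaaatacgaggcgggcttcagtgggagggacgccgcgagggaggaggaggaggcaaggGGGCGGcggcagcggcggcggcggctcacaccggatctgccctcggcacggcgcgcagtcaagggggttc

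All 7 windows held a GC box, from 1 match at Phactr4 to 8 at Marf1. Ankrd50 also held 3 CCAAT matches, Phactr4 the only TATAAA match of the 7, Vapb and Phactr4 an NRF1 match, and Tab3 the CTCGCGA motif. GC content ran from 59.3% at Coa7 to 71% at Ep400, and CpG counts ran from 18 to 34. Ep400 encodes a helicase of the TIP60 acetyltransferase complex, Coa7 a factor for assembling cytochrome c oxidase, and Ankrd50 a protein of endosome recycling. At Ep400 the summits lay at -99 bp in KAT8-cKO and -94 bp in WT from the start, with −log10 q of 9.66 in KAT8-cKO and 25.6 in WT. Vapb, an endoplasmic reticulum contact protein, had a wild-type summit at -121 bp and a −log10 q of 10.3, and no KAT8-cKO peak.

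The same features were counted over all member starts in the promoter table. The 1177 member windows had a median GC content of 63.7% and a median of 24 CpG. The 7108 other protein-coding genes with a wild-type peak had 60.3% and 20, the 9157 genes with no wild-type peak 50.7% and 5, and the whole set of 32841 windows 52.7% and 7. A GC box was present in 77.4% of member windows, against 62.5% for other genes with a wild-type peak and 35.7% of all windows. In the same 3 sets CCAAT stood in 45.5%, 39.6% and 37.4%, ETS in 31.9%, 29.1% and 14.9%, and NRF1 in 9.01%, 6.51% and 3.58%. CTCGCGA stood in 4.59%, 4.33% and 1.93%, and the CRE core in 6.20%, 5.60% and 3.21%. For the GC box, ETS, NRF1, CTCGCGA and the CRE core, most of the distance from all windows was shared by other genes with a wild-type peak. TATAAA stood in 4.33%, 7.105% and 13.6%, AP-1 in 4.25%, 4.63% and 7.81%, PU.1 in 24.2%, 26.0% and 28.3%, YY1 in 17.5%, 15.2% and 16.1%, and the κB part in 15.97%, 18.02% and 16.5%. With 1 window for each of 17486 protein-coding genes, median GC was 56.3% and median CpG 13. A GC box stood in 46.3% of them, ETS in 19.1% and TATAAA in 13.3%, all nearer the members than all windows were. Member windows were those nearest the WT summit, and windows of the other gene sets those nearest the annotated start. Member starts were thus richer in GC, CpG and GC boxes, and poorer in TATAAA, than the windows of the table. Most of this distance was shared by other genes with a wild-type peak. These are matches of letters in a window, not sites of binding.

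Among members the windows barely separated the peaks by their KAT8-cKO partner. Median GC was 63.3% for the 387 starts with a partner of at least 5, 64% for the 728 with a weaker partner and 62.7% for the 63 with none, and the CpG medians were 23, 24 and 24. ETS matches stood in 32.0%, 32.7% and 22.2% of the same 3 sets, and CRE cores in 5.68%, 6.87% and 1.59%. The set without a partner is small and these shares were not tested.

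Most of the wild-type peaks met a KAT8-cKO peak, but mostly a weaker one. A partner was found for 1420 of 1501 members, 94.6% (95% Wilson interval 93.3 to 95.6), while 81 had none. Over all wild-type peaks 33.2% were overlapped, and over the 4147 with a −log10 q of at least 5, 94.6% were, so the members' share equals that of strong peaks in general. A partner that itself reached 5 was found for 506 members, 33.7% (31.4 to 36.1). The same share was 4.51% over all wild-type peaks and 43.9% over the strong ones. A further 805 members, 53.6%, had a partner with q under 0.05 but a −log10 q under 5, and 109, 7.26%, had a partner that did not reach q of 0.05. Intervals cover counting error over peaks only, and a count above a q threshold moves with library depth and background.

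Partners had a median −log10 q of 4.07 in KAT8-cKO (quartiles 2.37 to 6.10), against 7.39 for the same 1420 peaks in WT (6.05 to 9.68). Median folds over the peak caller's background, the authors' own values, were 3.81 in KAT8-cKO and 4.82 in WT. The KAT8-cKO value was the larger in 159 of 1420 pairs, 11.2%, for −log10 q, and in 135, 9.51%, for fold. The wild-type values were chosen to be at least 5 and the KAT8-cKO values were not. The same rule applied to the KAT8-cKO list took 743 KAT8-cKO peaks, and 732 of them, 98.5% (97.4 to 99.2), had a WT peak, against 35.6% over all KAT8-cKO peaks. A WT partner of at least 5 was found for 547, 73.6% (70.3 to 76.7), against 7.5% over all KAT8-cKO peaks. In those pairs the KAT8-cKO −log10 q was the larger in 355 of 732, 48.5% (44.9 to 52.1), and the fold in 324, 44.3% (40.7 to 47.9). The other 11 of the 743 had no WT peak to compare.

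**Figure D1:**
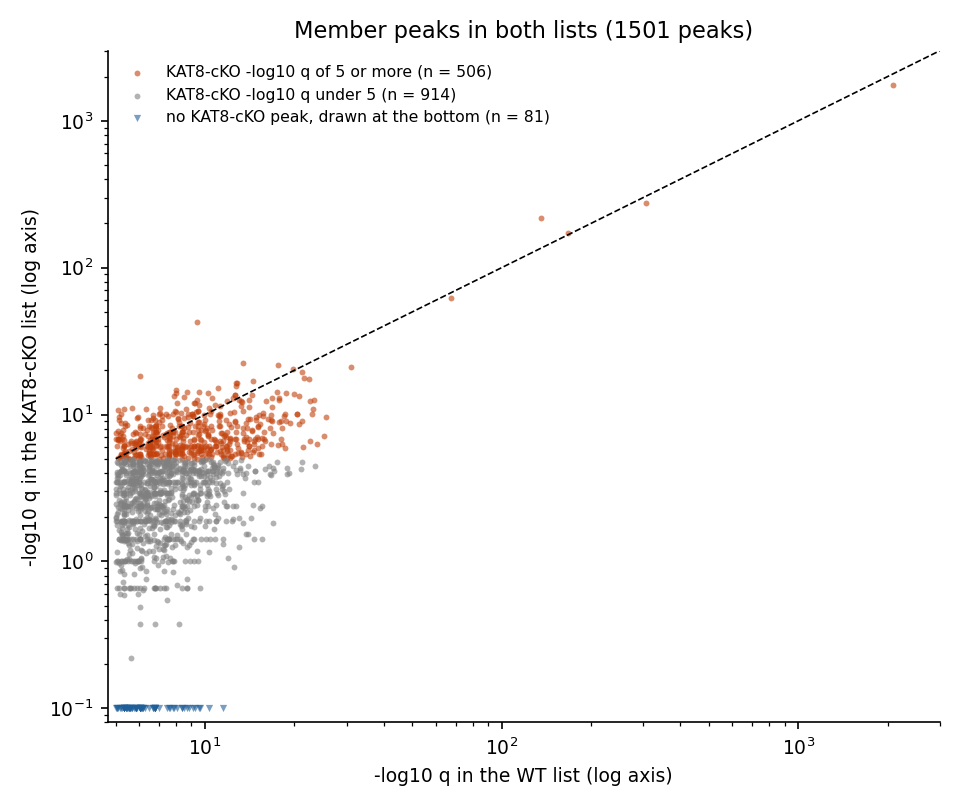
Each point is 1 of the 1501 members, with its −log10 q in KAT8-cKO (vertical) and in WT (horizontal) on log axes; the 81 without a KAT8-cKO peak are triangles drawn at the bottom. Points lie mostly below the dashed line of equal values, with 159 of 1420 pairs above it, and the few peaks far to the right lie close to it.

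Partners were found more often with wild-type strength. In the wild-type range of 5 to 6, 89.6% of 374 members had a partner and 17.9% one of at least 5. In the range 6 to 7.5 the shares were 93.9% and 22.9% of 423, and in 7.5 to 10 they were 96.3% and 37.7% of 379. In the range 10 to 15, 99.2% of 241 had a partner and 55.2% one of at least 5. In 15 to 30, all 78 had a partner and 76.9% one of at least 5, and the 6 peaks above 30 all had a partner of at least 5. Width moved with the shares too, although wider peaks were also somewhat stronger. A partner was found for 84.4% of the 141 peaks under 400 bp and for 98.0% of the 353 of 800 bp or more. The order of members in the 2 lists was loosely related, with a Spearman rho of 0.37 for −log10 q over the 1420 pairs. Of the 500 members strongest in WT, 267 were among the 500 strongest in KAT8-cKO of the 1420 paired members. Within its own list the median rank was 4096.5 for KAT8-cKO partners and 2225 for WT members, but the lists differ in length and ranks are not read as change.

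Against other strong wild-type peaks in the same ranges of strength, the members had a strong KAT8-cKO partner less often than narrow peaks away from gene ends. They had some partner at least as often. In the wild-type range of 5 to 10, 26.1% of 1176 members (23.7 to 28.7) had a partner of at least 5. The share was 32.8% of 1096 narrow peaks away from gene ends (30.04 to 35.6). The difference was -6.65 points (Newcombe 95% interval -10.4 to -2.90). In the range of 10 to 30 the shares were 60.5% of 319 members and 79.3% of 367 peaks away from ends, a difference of -18.8 points (-25.5 to -11.9). Strength was not matched within a range. In 10 to 30 the median wild-type −log10 q was 12.4 for members and 13.7 for peaks away from ends, and the median widths were 718 and 567 bp. In 5 to 10 the median −log10 q was 6.69 and 6.31. The part of strength and width in these differences was not tested. For a partner of any strength in the range of 5 to 10 the difference was 4.14 points in favour of the members (1.82 to 6.51), with 93.3% and 89.1%. Peaks of 1 kb or more at single gene ends had 36.4% of 195 in the range of 5 to 10, so members were -10.3 points from them (-17.7 to -3.37). In 10 to 30 that difference was -10.7 points, with an interval of -21.1 to 1.16 that includes no difference. Narrow peaks shared by the ends of several genes had 24.0% of 288 and 58.3% of 96. The differences from them were 2.15 points (-3.64 to 7.39) and 2.17 points (-8.66 to 13.4). Below a −log10 q of 5, 49.1% of the 7331 narrow single-gene peaks had any KAT8-cKO peak. Peaks are not independent of each other, and the intervals take no account of that.

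**Figure D2:**
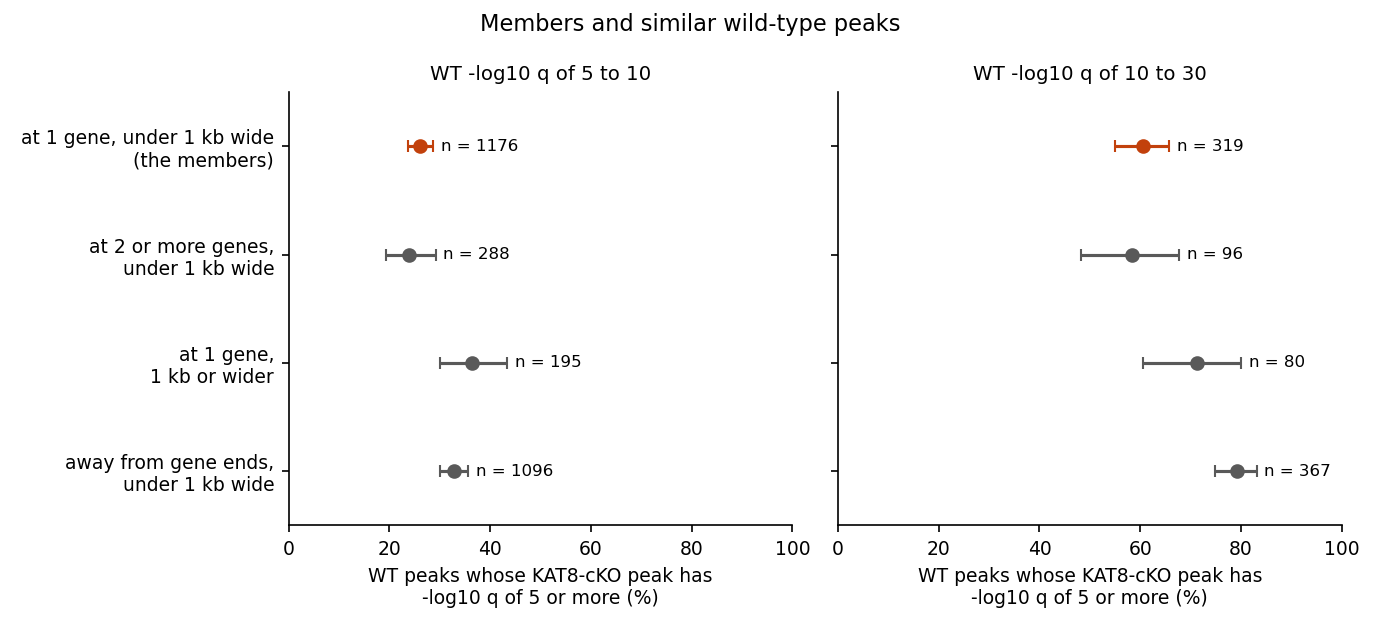
Share of peaks with a KAT8-cKO partner of at least 5 in −log10 q, for members and for the other sets of strong wild-type peaks, by wild-type strength; bars are 95% Wilson intervals over peaks. Members lie below peaks away from gene ends in both ranges of strength, and close to narrow peaks at several gene ends.

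Members sat at the starts of genes. The strand was known for 1235 of the 1501, through the promoter table. Of these 1205, 97.6%, lay at a start, 27 at a 3′ end and 3 covered both ends of a short gene. For 1182 of the start members the summit was within 1 kb of a listed start. A partner of at least 5 was found for 13 of the 27 at 3′ ends, 48.1%, against 33.0% at starts, a difference of 15.1 points (-2.49 to 33.2). Of all 1501 members 273, 18.2%, also lay at the end of a noncoding gene, and 33.7% of them had a partner of at least 5, as had 33.7% of those without. Of the 81 unpaired members 69 had no KAT8-cKO peak within 500 bp.

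Summits were compared within pairs, which overlap by definition, so peak widths limit how far apart they can lie. The distance between paired summits had a median of 81 bp (quartiles 31 to 177), and 793 of 1420 pairs, 55.8%, were within 100 bp and 1377, 97.0%, within 400 bp. With partners of at least 5 the median was 66.5 bp, and with weaker partners 96 bp. For each gene the start used was the listed one nearest the WT summit, which favours closeness to it in WT. At known starts, over 1119 pairs, KAT8-cKO summits had a median of -18 bp (quartiles -168 to 111) and WT summits -33 bp (-155.5 to 88). In 50 bp steps, both lists held more summits between 50 and 99 bp than in any other step. In KAT8-cKO 135 summits lay between 50 and 99 bp and 119 between -200 and -151 bp, with 100 between -100 and -51 bp, 68 between -50 and -1 bp and 94 between 0 and 49 bp. In WT 154 lay between 50 and 99 bp and 135 between -150 and -101 bp, with 90 between -100 and -51 bp, 96 between -50 and -1 bp and 98 between 0 and 49 bp. The KAT8-cKO summit was downstream of the start in 48.1% of pairs and the WT summit in 43.8%, and both were on the same side in 75.8%. Where the WT summit was upstream the KAT8-cKO summit lay on the other side in 157 of 625 pairs, and where it was downstream in 110 of 490. The peak covered the start itself in 81.1% of KAT8-cKO partners and in 92.0% of WT members. Because the WT summit chose the start, these shares are not read as a difference between genotypes. Large summit distances were found at Gm51573, 1137 bp, at Tor1a, which encodes torsin-1A of the nuclear envelope, -889 bp, and at Gm13279, 830 bp. Each is the KAT8-cKO summit minus the WT summit along the chromosome.

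**Figure D3:**
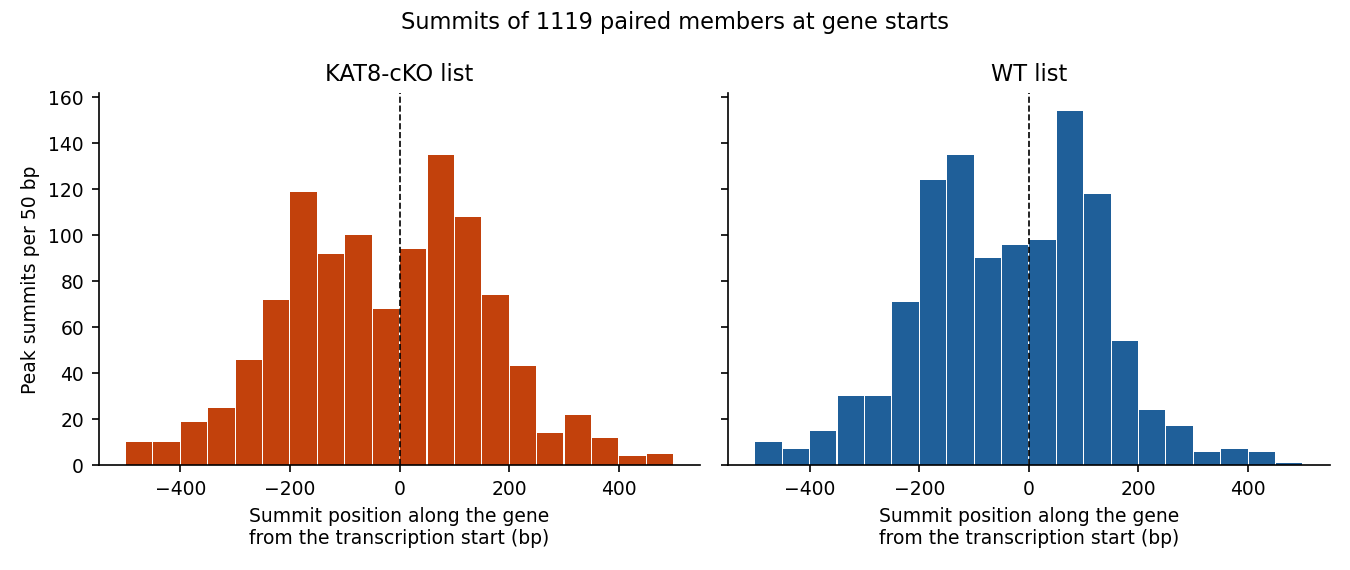
Distribution of summit positions from the listed start nearest the WT summit, in bp along the gene, for KAT8-cKO and WT in 1119 pairs. Both lists have their highest step between 50 and 99 bp and a second maximum upstream, and between them the lowest step is from -50 to -1 bp in KAT8-cKO (68 summits) and from -100 to -51 bp in WT (90).

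Partners were a little narrower than the members. The median width was 587.5 bp in KAT8-cKO and 654.5 bp in WT, and the median ratio of KAT8-cKO to WT was 0.925 (quartiles 0.705 to 1.15). KAT8-cKO was wider in 571 of 1420 pairs, 40.2%. The ratio was 0.976 where the partner reached 5 and 0.890 where it did not, and 0.906 over the 732 pairs chosen by the KAT8-cKO list. The limit of 1000 bp applied to the WT peak in the members and to the KAT8-cKO peak in those 732 pairs. Over the 466 pairs in which both peaks met the rule the ratio was 0.947, and the part of peak strength in the ratio was not tested. The widest members, Aldh3a2 and Usp53, measured 1015 and 845 bp in KAT8-cKO against 999 and 998 bp in WT. The narrowest were Srp9, of the signal recognition particle, with 705 bp in KAT8-cKO and 202 bp in WT, and Heatr5b with no partner and 210 bp in WT. Just outside the limit Ppp3ca and Kdm3a measured 1000 bp.

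**Figure D4:**
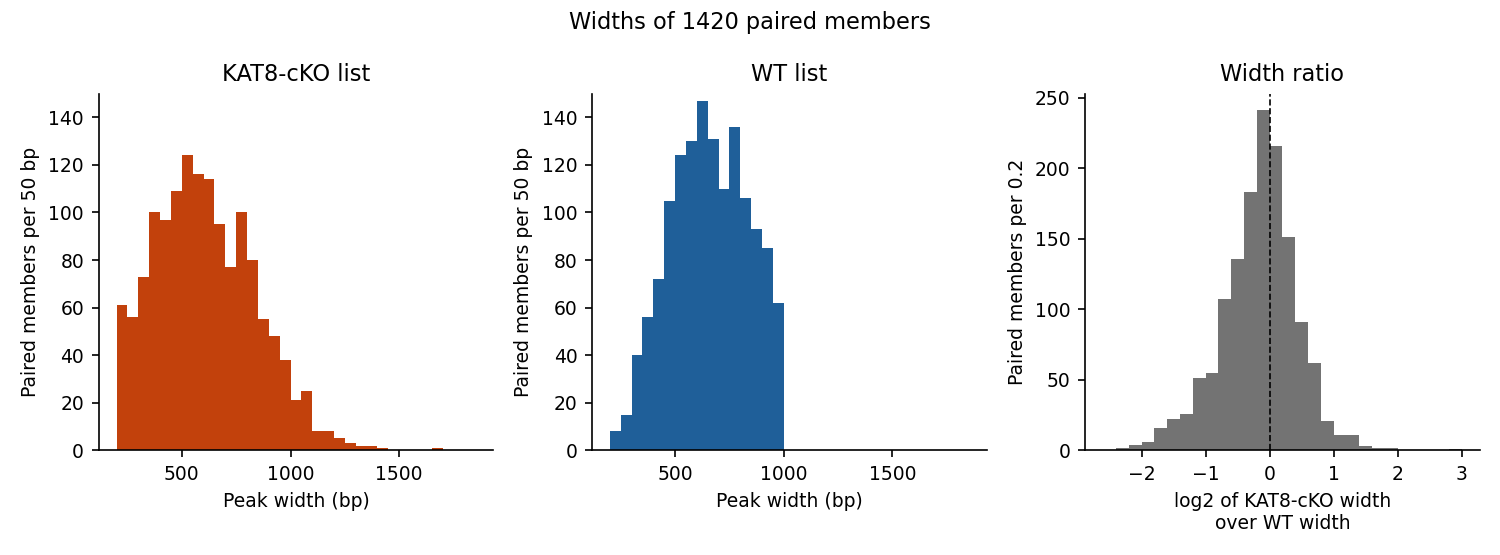
Widths in bp of paired peaks in KAT8-cKO and WT. The medians are 587.5 bp in KAT8-cKO and 654.5 bp in WT, with a wide scatter, and partners can exceed 1 kb because no width limit applied to them.

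The members nearest the threshold of 5 in WT were Lta4h, a leukotriene enzyme, Cpeb4, an RNA-binding protein, and Gp9, a platelet glycoprotein, with 2.91, 6.78 and 7.51 in KAT8-cKO and 5.01 in WT. Just below, Ubac2, Med21 and Usp10 had 0.761, 2.39 and 3.30 in KAT8-cKO and 4.99 in WT. Many wild-type values were tied in steps, with 40 members alike at −log10 q 5.33 and fold 4.64.

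A few members stood far above the rest and were strong in both lists. Wls, which encodes a carrier of Wnt proteins, had a peak beyond its 3′ end on chromosome 3 at 159939312 to 159939773, with −log10 q of 1766.46 in KAT8-cKO and 2081.39 in WT. Its fold was 41.8 in KAT8-cKO and 42.1 in WT. Gm32584 had 2 such peaks on chromosome 5, with −log10 q of 275.394 and 173.162 in KAT8-cKO against 306.481 and 167.772 in WT. Lars2, the mitochondrial leucyl-tRNA synthetase, had one near its 3′ end on chromosome 9, with 217.52 in KAT8-cKO and 135.628 in WT. Asmt on the X chromosome had 62.0 in KAT8-cKO and 67.5 in WT, and Gm40363 21.0 in KAT8-cKO and 31.1 in WT. Gm51573, with 42.7 in KAT8-cKO and 9.36 in WT, completes the 6 highest KAT8-cKO values together with Wls, Gm32584, Lars2 and Asmt. Whether these peaks are acetylated chromatin was not tested. Of the 25 members with a wild-type fold under 3.5, 17 had a KAT8-cKO partner of at least 5. Of the 63 members at genes with predicted or RIKEN names, 37 did, 58.7%, against 32.6% of the 1438 at other genes.

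The 10 strongest members without any KAT8-cKO peak were led by Ddx39a, an RNA helicase of mRNA export, with a −log10 q of 11.5 in WT. Vapb followed with 10.3, Marf1, an RNA-binding regulator, with 9.64, Phactr4, a regulator of actin and phosphatase, with 9.53, and Cops8, a subunit of the COP9 signalosome, with 9.22. Mapkapk3, a kinase below p38, had 9.10, Pak1ip1, a ribosome assembly factor, 8.81, Slc3a2, the heavy chain of amino acid transporters, 8.67, Bsg, a chaperone of lactate transporters, 8.47, and Ms4a4a, a macrophage membrane protein, 8.38. Their wild-type folds lay between 4.40 and 5.69. The weakest partners were at Dynlt1b, a dynein light chain, with 0.220 in KAT8-cKO and 5.61 in WT, and at Sel1l, which helps to degrade misfolded secretory proteins, with 0.374 in KAT8-cKO and 8.17 in WT. Erc1 and Tmem144 also had 0.374 in KAT8-cKO, against 6.80 and 6.05 in WT. Wdr70 had 0.490 in KAT8-cKO and 6.01 in WT, and Clpb, a mitochondrial disaggregase, 0.547 in KAT8-cKO and 7.45 in WT. None of these 6 KAT8-cKO values reached q of 0.05.

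At other starts, picked after their values were seen, the KAT8-cKO value was the larger. Acss2, which makes acetyl-CoA from acetate, had 16.5 in KAT8-cKO and 12.8 in WT, and Acat2, a thiolase that joins acetyl-CoA units, 14.7 in KAT8-cKO and 7.99 in WT. Smc2, a condensin subunit, had 13.2 in KAT8-cKO and 8.51 in WT, and Ncapg2, another, 10.7 in KAT8-cKO and 5.09 in WT. Cep55, which acts in the last step of cell division, had 13.6 in KAT8-cKO and 12.6 in WT, and Hmgb2, a chromatin protein, 13.0 in KAT8-cKO and 10.6 in WT. Ms4a5 had 18.3 in KAT8-cKO and 6.05 in WT at its 3′ end. Pou2f1 held members at both ends, with 15.2 in KAT8-cKO and 11.1 in WT at the 3′ end, and 2.32 in KAT8-cKO and 15.3 in WT at the start. Also picked afterwards, Mphosph6 had 1.82 in KAT8-cKO and 17.0 in WT, Brd2, which reads acetylated histones, 1.05 in KAT8-cKO and 11.9 in WT, and Naa16 1.82 in KAT8-cKO and 13.4 in WT.

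Genes of the KAT8 complexes were among the members, without Kat8 itself. Of 12 such genes 3, or 25%, were members, against 6.79% of all protein-coding genes, and all 3 had a partner under 5. The share with a partner of at least 5 was thus 0% (0 to 56.1), an interval that includes the 33.3% over all member genes. Phf20 had 2.89 in KAT8-cKO and 11.6 in WT, Mcrs1 1.67 in KAT8-cKO and 10.7 in WT, and Kansl2 3.09 in KAT8-cKO and 10.2 in WT. The 3 genes belong to the NSL complex. Of 51 acetyltransferases, deacetylases and acetyl readers, 6 were members and 1 of them, Hdac1 (6.08 in KAT8-cKO and 10.9 in WT), had a partner of at least 5. Crebbp, the acetyltransferase CBP, had 4.79 in KAT8-cKO and 9.67 in WT.

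Among 22 NF-κB genes and regulators, 6 were members, 27.3% against 6.79% of all protein-coding genes. All 6 had a partner, and 2 of the partners reached 5, the same 33.3% as over all member genes. Rela, the p65 subunit, had 1.34 in KAT8-cKO and 8.45 in WT, and Rel 4.10 in KAT8-cKO and 5.50 in WT. Birc2 and Birc3, ubiquitin ligases of TNF receptor signalling, had 4.43 and 6.55 in KAT8-cKO against 6.89 and 5.85 in WT. Otulin, which removes linear ubiquitin, had 5.47 in KAT8-cKO and 6.46 in WT, and Traf2, at its 3′ end, 0.589 in KAT8-cKO and 5.33 in WT. Of 28 TLR7 pathway genes, 3 were members, 10.7%, and 1 of the 3 had a partner of at least 5. Mapk8, the kinase JNK1, had 5.41 in KAT8-cKO and 8.01 in WT, Map2k3 3.37 in KAT8-cKO and 7.52 in WT, and Tab3, the partner of the kinase TAK1, no KAT8-cKO peak and 6.05 in WT. Against the 6.79% of all protein-coding genes, no chemokine gene of 39 and no inflammatory cytokine gene of 23 was a member. Of 43 interferon and interferon-stimulated genes 1 was, Oasl2, with no partner and 6.16 in WT, and of 26 immediate early genes 1 was, Egr1, with 2.66 in KAT8-cKO and 5.88 in WT.

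Fcgr3, a receptor for antibodies, was the 1 member among 29 macrophage identity genes, with 7.79 in KAT8-cKO and 5.28 in WT. Any peak at a gene end, whether member or not, was found for 7 of 15 macrophage markers in KAT8-cKO and 13 of 15 in WT. Over all 21887 protein-coding genes it was found for 9473 in KAT8-cKO and 10249 in WT. The KAT8-cKO share of macrophage markers was thus close to the general one, and the WT share was above it. Markers of other cells had fewer: in KAT8-cKO 1 of 10 for T cells, 1 of 8 for B cells, 2 of 9 for neutrophils, 2 of 8 for erythroid and megakaryocyte cells and 1 of 8 for fibroblasts, and in WT 3, 2, 3, 2 and 2 in the same order. Gp9 was the 1 member among 43 genes of other cell types, and the part of other cells in the results was not tested.

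Most housekeeping classes held members at shares above the 6.79% of all protein-coding genes, and a partner of at least 5 was found for 33.3% of all member genes. Pre-mRNA splicing, with 7 members of 90 genes, 7.78%, was close to the first share, and V-ATPase and lysosome, with 2 of 64, 3.13%, was below it. The 6.79% counts genes with no wild-type peak as well. Of the 10249 genes with any wild-type peak at an end, 1487 were members. The counts were 9 of 66 for mitochondrial ribosomal proteins, 7 of 81 for splicing and 14 of 48 for translation initiation. The part of having any peak in the class shares was not tested. Of 56 translation initiation genes 14, or 25%, were members, 12 with a partner and 5 with one of at least 5. They included Eif2ak4, a kinase that senses missing amino acids, with 10.03 in KAT8-cKO and 10.4 in WT. Eif1 had 8.36 in KAT8-cKO and 8.16 in WT, and Eif2s2 and Eif4e had no partner, with 8.37 and 5.04 in WT. Of 37 aminoacyl-tRNA synthetases 8 were members, all with a partner and 3 with one of at least 5. Of 80 chaperones 15 were members, all paired, and 4 partners reached 5, among them Hspa8 with 6.58 in KAT8-cKO and 14.6 in WT. Of 101 genes with cyclin, CDK, CDC, E2F or MCM names 18 were members, 16 paired and 4 with a partner of at least 5. The names also took Cdc25c, Cdc16, Cdc73 and Cdk5rap2, which are none of the cyclins, CDKs, E2F or MCM. Of 107 respiratory chain genes 17 were members, 15 paired and 5 of at least 5, among them Ndufb4 with 11.5 in KAT8-cKO and 13.2 in WT. Of the 51 proteasome genes 9 were members, 8 paired and 2 of at least 5. The 9 RNA helicases had 3 of at least 5, the 12 genes of RNA polymerase, Mediator and TAF 3, and the 27 genes of ubiquitin conjugation and removal 9, so the helicases and the ubiquitin genes were at the 33.3% of all member genes and the third class, at 25%, had an interval (8.89 to 53.2) that includes it. The 10 cytosolic ribosomal protein genes and the 9 mitochondrial ones all had a partner, with 3 and 4 of at least 5. Rps23 had 8.36 in KAT8-cKO and 15.1 in WT, and Mrps14 12.45 in KAT8-cKO and 16.02 in WT. The 7 pre-mRNA splicing and 5 DNA repair members were all paired, with 2 and 2 partners of at least 5, and the 2 members of V-ATPase and lysosome were paired with weaker peaks. Of 1465 olfactory and vomeronasal receptor genes 1 was a member, Vmn2r29, with 11.998 in KAT8-cKO and 8.03 in WT.

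Among genes of membrane traffic, all 10 members with Rab names had a partner. A partner of at least 5 was found for 6, 60% (31.3 to 83.2), an interval that includes the 33.3% over all member genes. The 6 include Rab11fip5, a Rab-binding protein and not a Rab itself, with 7.38 in KAT8-cKO and 6.30 in WT. Rab members were also stronger in WT, with a median of 10.7 against 7.30 over all member genes, and 55.2% of members between 10 and 15 had such a partner. Rab22a had 12.4 in KAT8-cKO and 22.6 in WT, Rab8a 5.71 in KAT8-cKO and 14.6 in WT, and Rab1a 7.02 in KAT8-cKO and 13.7 in WT. Rab5a had 3.96 in KAT8-cKO and 16.6 in WT, and Rab39 1.41 in KAT8-cKO and 15.6 in WT. Of 16 vesicle traffic members 15 were paired and 8 had a partner of at least 5, 50% (28.0 to 72.0), led by Trappc6b with 9.71 in KAT8-cKO and 18.5 in WT. The autophagy members were Wipi1 with 17.5 in KAT8-cKO and 22.4 in WT, Ulk1 with 6.85 in KAT8-cKO and 15.7 in WT, Atg4d with 7.75 in KAT8-cKO and 14.4 in WT, and Atg10 with 2.75 in KAT8-cKO and 6.07 in WT. Of 11 members among mitochondrial carriers and import genes 7 had a partner. A partner of at least 5 was found for 1, 9.09% (1.62 to 37.7), an interval that includes 33.3%. This was at Tomm70a, an import receptor, with 12.6 in KAT8-cKO and 9.42 in WT. Slc25a37, an iron carrier, Timm22, Slc25a29 and Slc25a53 had no partner. Of 59 zinc finger members 57 had a partner and 13 one of at least 5, 22.0% (13.4 to 34.1), an interval that also includes 33.3%.

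**Figure D5:**
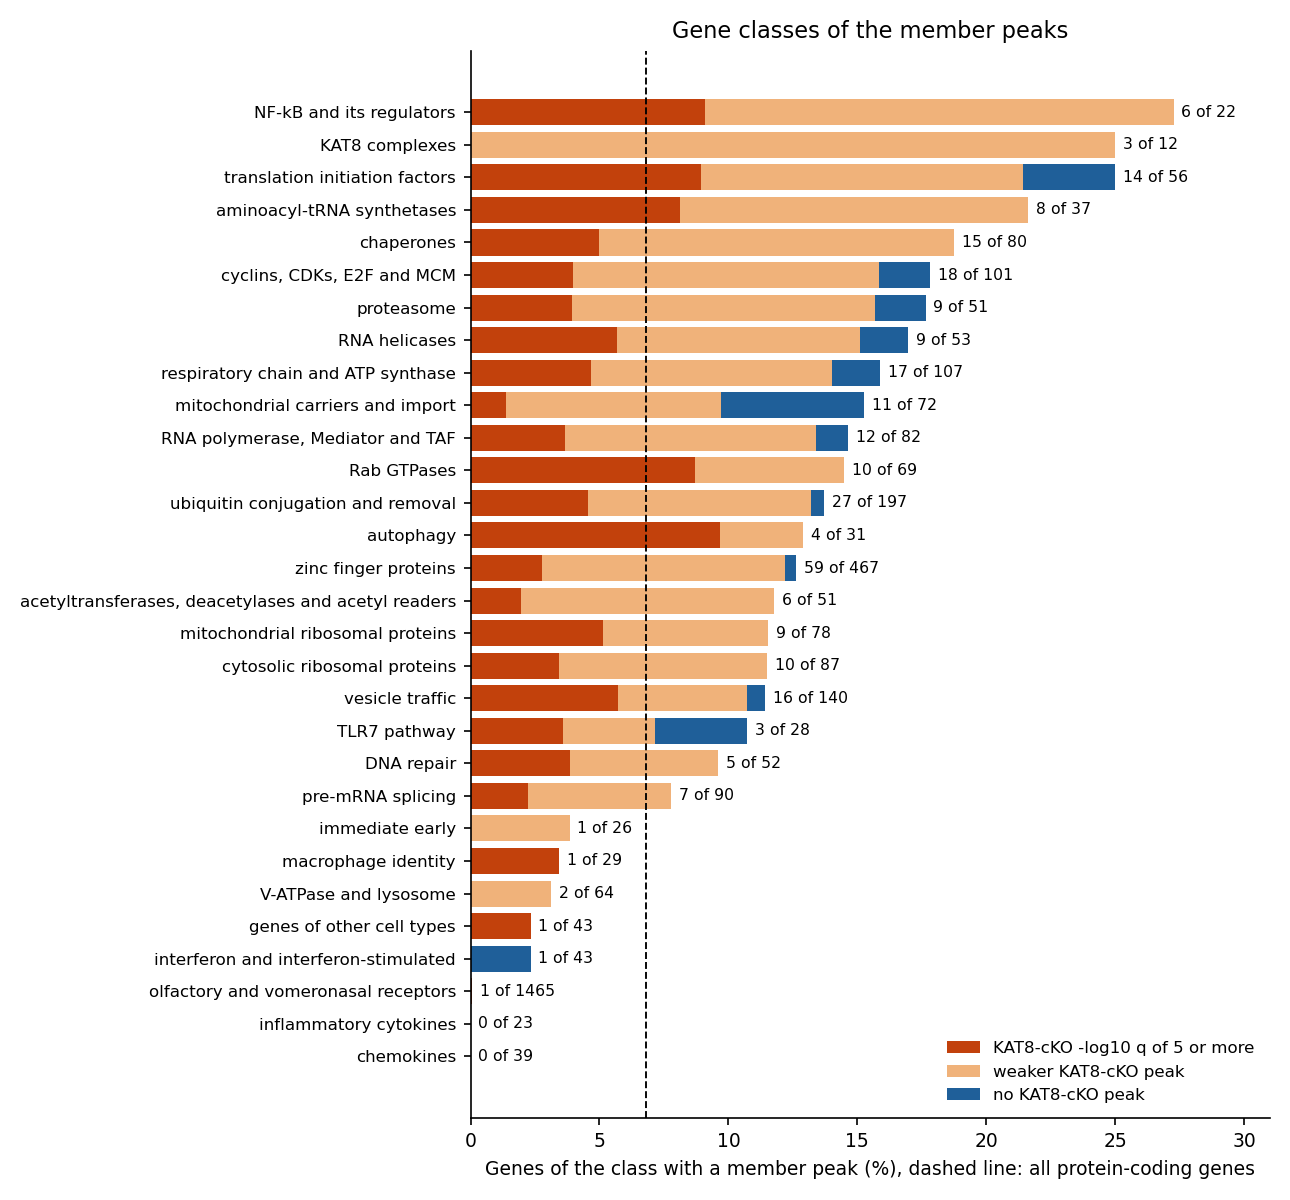
Member genes of each gene class by their KAT8-cKO partner (−log10 q of at least 5, under 5, or none). Bars give the percent of the genes of each class that hold a member, with counts beside them, and the dashed line is the 6.79% of all protein-coding genes. NF-κB, KAT8 complex and translation initiation genes head the order, and chemokine and cytokine genes have no member.

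Members on the X chromosome met a KAT8-cKO peak less often than autosomal ones. They were placed by the assembly, and parts of the X shared with the Y were not set apart. Of 17 members on the X 9 had a partner, 52.9% (30.96 to 73.8), against 1411 of 1484 on autosomes, 95.1%. The difference was -42.1 points (-64.1 to -21.2). In the wild-type range of 5 to 10 the counts were 7 of 15 and 1090 of 1161, a difference of -47.2 points (-69.1 to -24.0). A partner of at least 5 was found for 4 of the 17, 23.5%, against 33.8% on autosomes, and the interval of that difference, -10.3 points (-24.5 to 13.6), includes no difference. Of KAT8-cKO peaks chosen by the same rule, 4 lay on the X and all 4 had a WT peak. Members were also rarer on the X, at 1.76% of its 966 protein-coding genes against 7.11% of autosomal genes. The 4 strongest members on the X were Asmt, Kdm6a, Haus7 and Gnl3l. Kdm6a, a histone demethylase, had 1.41 in KAT8-cKO and 14.6 in WT. Haus7 had 6.12 in KAT8-cKO and 8.43 in WT, and Gnl3l 7.61 in KAT8-cKO and 7.90 in WT. The members without a partner were Upf3b, Tspyl2, Ap1s2, Siah1b, Rpgr, Tab3, Slc25a53 and Suv39h1, with wild-type values from 5.33 to 6.80. Of all peaks, the lists held 616 on the X in KAT8-cKO and 773 in WT, a ratio of 0.797, against 0.9496 on autosomes. Among peaks with a −log10 q of at least 5, the class the members belong to, they held 52 on the X in KAT8-cKO and 82 in WT, and the ratio of 0.634 was close to the 0.644 of autosomes. On the Y all peaks numbered 136 in KAT8-cKO and 174 in WT. Of 4 single-copy Y genes, Eif2s3y alone had a peak at an end, with 0 in KAT8-cKO and 1 in WT, so the sex of the mice could not be read from these peaks. Genotype and any difference in sex, animal or library cannot be told apart here.

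Among KAT8-cKO peaks chosen by the same rule, 11 had no WT peak. Among them were Gm40469 with a −log10 q of 8.66, Rbm28, an RNA-binding protein of the nucleolus, with 7.61, and Nadk2, the mitochondrial NAD kinase, with 6.78.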

How the data were processed

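H4K16ac CUT&Tag peak lists of 1 KAT8-cKO and 1 WT library were used, both on mm10. The submitters' processing notes name Bowtie 0.12.8, DiffBind and MACS2 2.2.7.1 without saying what each did. The sources used here say nothing of peak calling settings, a control library or duplicates. Each deposited list gives a score per peak, the fold over the peak caller's background, −log10 of the p-value and of the q-value, and a summit offset. The folds, scores, −log10 p and −log10 q values are the authors' own and move with library depth and background. The lowest −log10 p was 2.01 in both lists.

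Gene ends were those of RefSeq on GRCm38.p6, in a table without strand, and strand came from the RefSeq promoter table (1224 of 1487 member genes). The members, gene classes and the rule for named genes were chosen with earlier results of these data known. Many gene classes were taken by gene name and can hold genes that share only the name. The rule names the strongest, unpaired, weakest-partner, widest, narrowest and threshold members, and those with the largest summit distances. It also names up to 3 members of each of 30 classes (plus 2 unpaired), members on the X chromosome and unpaired KAT8-cKO peaks. Genes named outside this rule were chosen after their values were seen. Some genes that the rule takes are not reported here. No test between genotypes was possible with 1 library each. Intervals are 95% Wilson or Newcombe and cover counting error over peaks only. The overlap code was tested on simulated data. Alternatives changed the strength threshold, window, width and overlap. Python 3.11.15, pandas 2.3.3, numpy 2.4.6, scipy 1.17.1 and matplotlib 3.10.9 were used.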

Additional observations from a re-analysis of the deposited data

How the results depend on the processing

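Windows of 500 bp or 2 kb, and leaving out members with a fold under 3.5 or a −log10 q of 30 or more (an alternative chosen after seeing the data), kept every value near the one reported, with 1454, 1536 and 1470 members. Counting KAT8-cKO peaks within 500 bp gave 95.4% with a partner. With a −log10 q of at least 10 there were 325 members, of which 99.4% had a partner and 61.2% one of at least 5, the width ratio was 0.988, the summit distance 62 bp and the share of KAT8-cKO peaks with a WT peak 100%. With a fold of at least 4 in place of q, 92.3% of 1805 members had a partner and 28.5% one of at least 5. With widths under 500 bp there were 338 members, of which 87.6% and 24.3% had such partners; the width ratio was 1.12, the summit distance 62 bp and the share of KAT8-cKO peaks with a WT peak 96.1%. Requiring each peak to cover most of the other (at least 50%) gave 80.6% with a partner, a width ratio of 0.957 and 87.8% of KAT8-cKO peaks with a WT peak. Counting only peaks of the other list with q under 0.05 gave 87.9% and 96.8%. The width ratio thus turned above 1 for members under 500 bp; the cause was not tested. No paired analysis was possible because each genotype had 1 library, and for the same reason no replicate could be left out. Read totals are unknown, so no limit of detection could be set for members without a partner.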
